A study of Homo sapiens with 20 samples.

Results

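The PML nuclear body genes described here are PML, SP100, SP110, SP140, SP140L and DAXX, 6 of the 43366 genes in the count table. They were chosen by name as genes of nuclear body proteins, several of them interferon-responsive, with earlier results of these data known. All 6 had enough counts to be tested in each comparison. Gene expression was measured by polyA RNA-seq in U2OS, a human osteosarcoma cell line, in 20 libraries of 46652288 to 72952859 counted reads. The WT group held the clones WT1, WT3, WT4, WT5 and WT6, and the ZBTB48 KO group the clones KOC3, KOC5, KOD2, KOE2 and KOF4, replicates 1 to 5 in that order. Each clone is a single-cell-derived line and counts as 1 replicate, so that p values measure the spread between these clones. Each was sequenced without treatment and after IFNγ at 250 U/ml for 24 h, which gave 4 groups of 5 libraries. The comparisons ask how the genes responded to IFNγ in each genotype and whether the loss of ZBTB48, a zinc finger protein that binds telomeres and gene promoters, altered their levels.

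PML bodies are spheres in the nucleus that are built on the PML protein, hold SP100 and DAXX as resident proteins, and depend on modification by SUMO. Interferons increase their number and size through transcription of PML and SP100, and the bodies take part in the defence against DNA viruses. U2OS maintains its telomeres by recombination, without telomerase, and in such cells PML bodies form at telomeres. It is also known to lack the protein of ATRX, the chromatin remodeller that works with DAXX.

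Some libraries differed from the others of their label. ZBTB48 itself stood at 8.02 to 9.44 CPM (counts scaled to a common library total) in the untreated WT libraries and at 1.29 to 4.06 CPM in 4 of the untreated libraries labelled KO. In KOD2, KO replicate 3, it was 11.3 CPM untreated and 15.8 CPM with IFNγ, above every WT library of the same treatment. RNA levels do not give the genotype or the protein, so whether this clone lacks ZBTB48 protein cannot be told from them. The treated library of KOE2 matched the untreated library of KOF4 and the reverse (r = 0.84 and 0.76), while their own pairs gave r = 0.00 and 0.07. The sum of 6 osteoblast and osteosarcoma markers was 2901.7 to 10704.3 CPM, against 0.645 to 3.42 CPM for 10 leukocyte markers and 0.766 to 13.8 CPM for 4 epithelial markers. TERT, the catalytic subunit of telomerase, had at most 27 counts in a library. ATRX transcripts were present at 204.1 to 342.0 CPM, which says nothing of the protein. As these are bulk counts, fewer expressing cells and less RNA per cell cannot be told apart.

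The genes lie at 3 loci of GRCh38, in the spans that the count table gives. PML, the scaffold, lies at chr15:73994716-74047827 on the plus strand, with 7636 exonic bases. DAXX, a histone H3.3 chaperone, lies at chr6:33318558-33322959 on the minus strand, with 2558 exonic bases. The other 4 genes code for the Sp100 family of chromatin readers and stand in 380 kb of chromosome 2. SP110 occupies chr2:230165186-230225636 on the minus strand, and SP140 chr2:230186151-230316571, SP140L chr2:230327193-230403732 and SP100 chr2:230416201-230545606 follow on the plus strand. SP140 and SP140L are 10622 bp apart, and SP140L and SP100 12469 bp.

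The model of SP140 overlaps that of SP110. Of the 19424 exonic bases of SP140, 13291 (68.4%) lie within the span of SP110 on the opposite strand, 12933 of them in 1 exon at chr2:230186151-230199083. No exonic base is shared, but the strand setting of the counting was not given, and without it reads from SP110 introns and from SP140 cannot be told apart there.

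**Figure D1:**
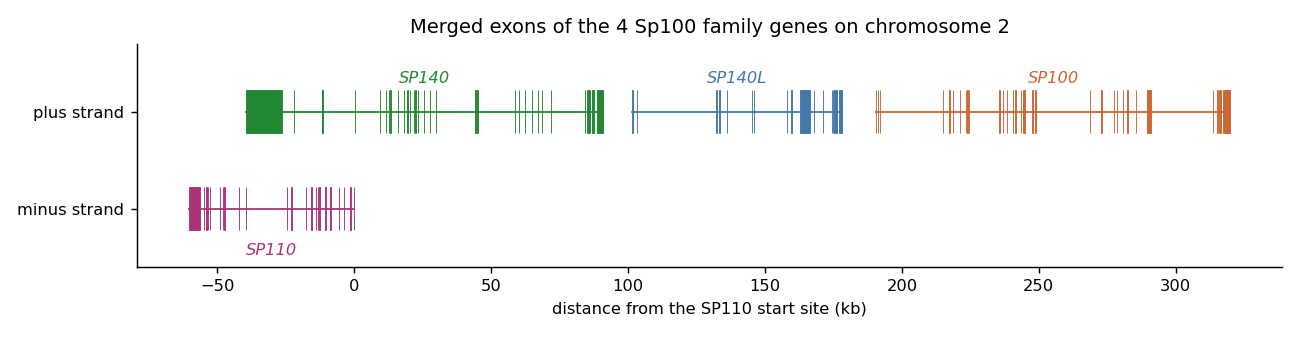
Merged exons (boxes) and spans (lines) of SP110, SP140, SP140L and SP100 as the count table gives them, in kb from the SP110 start site and by strand. The span of SP140 runs back into that of SP110, where its largest exon of 12933 bases lies.

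The start regions of the chromosome 2 genes are shown because these neighbouring genes share sequence there. They come from the RefSeq promoter table (GRCh38.p14), which held 4 of the 6 genes. SP110 and SP140 start head to head, with 99 bases between the listed start sites (chr2:230225637-230225735). The stretches before an inner SP110 start (chr2:230219985-230220084, minus strand), before SP140L (chr2:230326943-230327192) and before SP100 (chr2:230415951-230416200) follow. None of these stretches holds an exonic base of the 4 genes. Capitals mark the letters TTTCACTT and, before the inner SP110 start, also TTCTCGGAA, a match to the GAS motif.
SP110 and SP140: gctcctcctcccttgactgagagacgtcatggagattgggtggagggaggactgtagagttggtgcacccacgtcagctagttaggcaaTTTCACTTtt
SP110 inner start: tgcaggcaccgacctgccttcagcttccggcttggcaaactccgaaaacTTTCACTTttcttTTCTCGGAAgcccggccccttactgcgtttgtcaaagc
SP140L: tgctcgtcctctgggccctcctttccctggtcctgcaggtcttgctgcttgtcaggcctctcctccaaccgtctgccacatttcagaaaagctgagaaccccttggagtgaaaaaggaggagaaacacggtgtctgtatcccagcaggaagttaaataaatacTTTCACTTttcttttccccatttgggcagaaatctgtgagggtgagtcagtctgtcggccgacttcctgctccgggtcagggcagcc
SP100: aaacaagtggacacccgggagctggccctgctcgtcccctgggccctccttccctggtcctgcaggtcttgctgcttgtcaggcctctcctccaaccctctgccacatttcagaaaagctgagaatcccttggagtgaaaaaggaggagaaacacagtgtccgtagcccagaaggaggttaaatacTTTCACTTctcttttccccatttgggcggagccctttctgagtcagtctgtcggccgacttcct
The SP140L and SP100 stretches aligned over 231 columns with 207 identical (89.6%) and 9 gap columns.

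TTTCACTT was present in all 4 stretches, at bases -10 to -3 from the SP140 start, -51 to -44 from the inner SP110 start, -87 to -80 from SP140L and -64 to -57 from SP100. It was found as 1 of 2 runs of 8 letters common to the stretches at the outer start sites, the other being AGGAGGAG, and was therefore chosen after the sequences were seen. Of 35116 RefSeq promoters, each of 250 bases before and 50 after a start site, 569 (1.62%) held TTTCACTT and 2386 (6.79%) AGGAGGAG on either strand. The GAS motif (gamma-activated site), TTCNNNGAA, occurred in 7.66% of promoters and, among these genes, at bases -38 to -30 of the inner SP110 start. The interferon-stimulated response element, searched as GAAANNGAAA, occurred in 3.57% of promoters and the telomere repeat TTAGGG in 9.05%. Neither was found in the windows of the 4 genes with a listed promoter, and PML and DAXX had none to search. Only that spelling and spacing of the response element was searched, so other forms of it may be present. On the opposite strand TTTCACTT reads AAGTGAAA. A match of letters is a description and no evidence of a bound site.

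With IFNγ, SP100, SP110 and SP140L were called higher in WT clones, 3 of the 6 genes, where 2.48% of the 19522 genes tested were called higher. A gene was called where edgeR's adjusted p was below 0.01 and its fold exceeded 2. In KO clones 2 of the 6 genes, SP100 and SP110, were called higher, where the share over the 19385 genes tested was 1.70%. This fit left out the clone, which treated and untreated libraries share. With the clone as a replicate block, PML was also called in WT clones and SP140L in KO clones. The call of SP140L in WT clones was lost when any clone was left out. The largest rise was that of SP110, 5.38-fold in WT and 8.04-fold in KO clones. All 6 estimates were above 0 in both genotypes, with a median log2 fold change of 1.20 in WT and 1.35 in KO clones, against -0.03 over all genes tested in each. The 6 genes were chosen with earlier results of these data known, so setting their calls beside all genes is no test.

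**Figure D2:**
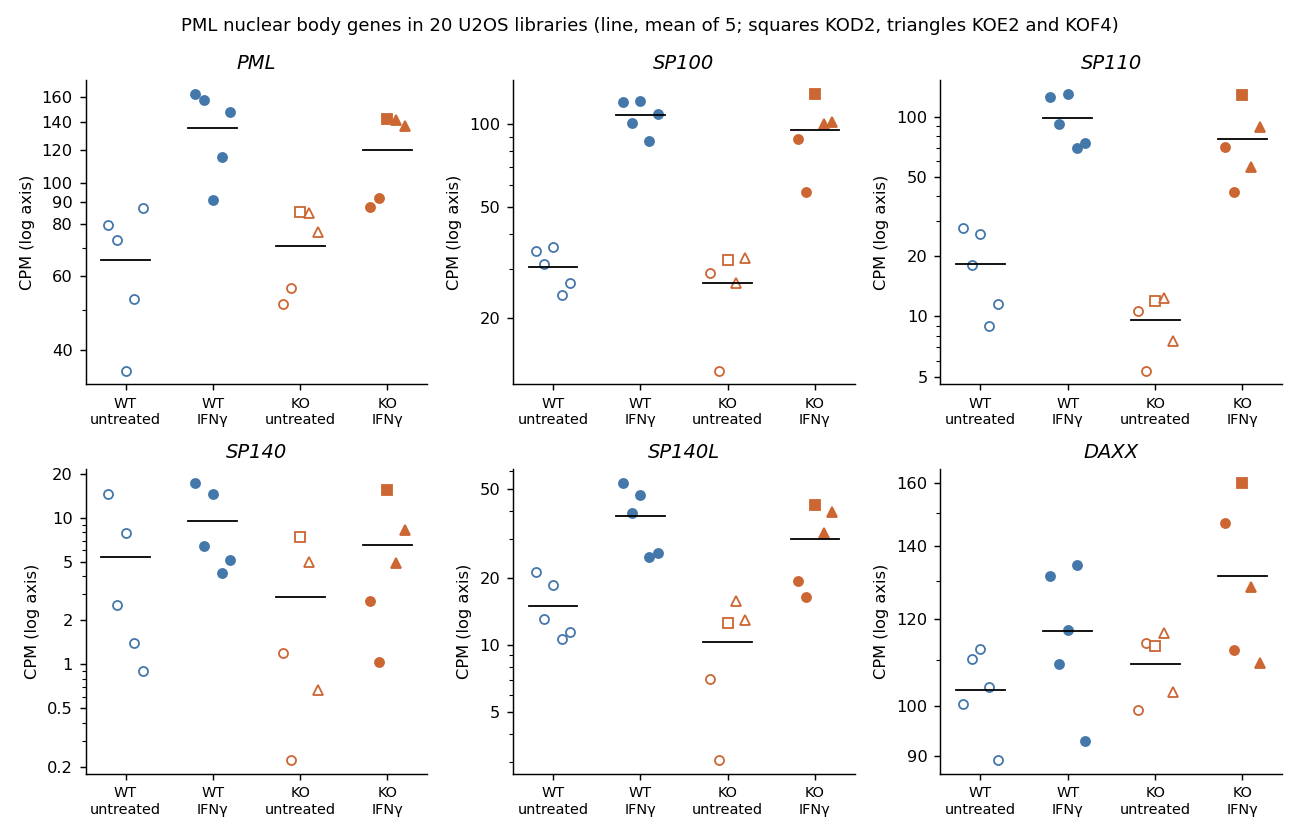
CPM on a log axis of the 6 genes in each of the 20 libraries, open symbols untreated and filled symbols with IFNγ, with the mean of each group as a line. Squares mark KOD2 and triangles KOE2 and KOF4. For PML, SP100, SP110 and SP140L the treated and untreated libraries of a genotype do not overlap, while those of SP140 and DAXX do. The share of all genes without overlap was not counted.

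PML, on which the bodies are built, stood at 79.3, 73.3, 35.8, 53.0 and 87.3 CPM in the untreated clones WT1, WT3, WT4, WT5 and WT6. With IFNγ the same clones had 163.4, 157.9, 91.2, 115.6 and 147.5 CPM. The highest untreated library was below the lowest treated one, by a narrow margin, and WT4 was the lowest in both states. The log2 fold change in WT clones was 1.06 ± 0.24 (SE, n = 5; edgeR adjusted p = 0.0176), which missed the cut-off. With the clone as a replicate block it was 1.09 (edgeR adjusted p = 5.02e-07), and PML was then called. Taken clone by clone, the rise ranged from 0.76 to 1.35 on the log2 scale and was present in 5 of 5 WT clones. An exact permutation test of the log2 levels gave p = 0.00794 in each genotype, the smallest that 5 against 5 libraries allow, and the same for SP100, SP110 and SP140L. The share of all genes that reach this value was not counted. By edgeR, 4868 of 19522 genes in WT and 4548 of 19385 in KO clones had an unadjusted p under 0.05.

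In the clones labelled KO, untreated PML was 51.5, 56.2, 85.4, 85.0 and 76.5 CPM in KOC3, KOC5, KOD2, KOE2 and KOF4. With IFNγ it was 87.7, 92.3, 142.2, 141.3 and 137.0 CPM in the libraries of those labels. KOC3 and KOC5 were the lowest in both states, and the lowest treated library exceeded the highest untreated one by a small margin. The change of 0.76 ± 0.20 on the log2 scale (SE, n = 5; edgeR adjusted p = 0.0411) was less than 2-fold, and no fit made PML a call at both cut-offs. The clones responded almost alike, from 0.71 to 0.84 on the log2 scale, and from 0.69 to 0.88 when the treated libraries of KOE2 and KOF4 were exchanged.

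SP100, a resident of PML bodies that represses incoming viral genomes, was at 34.8, 31.3, 35.9, 24.1 and 26.6 CPM in untreated WT clones in the same order. With IFNγ it reached 120.3, 100.4, 121.0, 87.1 and 108.4 CPM. All treated libraries were well above the untreated ones. SP100 rose by a log2 fold change of 1.83 ± 0.15 (SE, n = 5; edgeR adjusted p = 1.48e-05), the smallest adjusted p of the 6 genes in WT clones.

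In KO clones SP100 was 28.9, 12.9, 32.4, 26.7 and 32.9 CPM untreated and 88.5, 56.8, 128.7, 100.1 and 101.6 CPM with IFNγ. KOC5 was the lowest in both states, and the groups did not overlap. It rose by a log2 fold change of 1.83 ± 0.27 (SE, n = 5; edgeR adjusted p = 0.00259). Without KOC3, KOD2, KOE2 or KOF4 the estimate was 1.78 to 1.91, but its adjusted p rose past 0.01 (0.0191 to 0.0282). Without KOE2 and KOF4 together the estimate was 1.88 and its adjusted p 0.17.

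SP110, a family member that is itself interferon-induced and is known for the immunodeficiency caused by its loss, had 27.6, 18.1, 25.9, 8.98 and 11.6 CPM in untreated WT clones. With IFNγ it had 125.0, 92.1, 130.7, 69.5 and 74.2 CPM. WT5 and WT6 were the lowest in both states. This was a rise of 2.43 ± 0.33 on the log2 scale (SE, n = 5; edgeR adjusted p = 7.87e-04), and without WT3 the adjusted p was 0.0102.

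In untreated KO clones SP110 was at 10.7, 5.36, 11.9, 12.4 and 7.52 CPM, and with IFNγ it reached 70.4, 41.9, 128.0, 55.8 and 89.2 CPM. The treated libraries were all above the untreated ones, with KOC5 the lowest in both states. The rise was 3.01 ± 0.34 on the log2 scale (SE, n = 5; edgeR adjusted p = 3.83e-04). It was 2.84 without KOD2 (edgeR adjusted p = 0.00273) and 3.09 without KOE2 and KOF4 together, where the adjusted p of 0.0806 missed the cut-off.

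SP140L, a paralogue of SP140, was at 21.3, 13.1, 18.5, 10.7 and 11.4 CPM in untreated WT clones. With IFNγ it was 53.3, 39.1, 46.9, 24.9 and 25.8 CPM. The groups did not overlap, but the lowest treated library was close to the highest untreated one. SP140L rose by a log2 fold change of 1.35 ± 0.27 (SE, n = 5; edgeR adjusted p = 0.00768), and the call was lost when any of the 5 clones was left out (0.0165 to 0.0529).

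In KO clones SP140L was 7.08, 3.06, 12.6, 15.7 and 12.9 CPM untreated and 19.4, 16.4, 42.5, 31.7 and 39.5 CPM with IFNγ. KOC3 and KOC5 were again the lowest in both states. Its log2 fold change of 1.54 ± 0.42 (SE, n = 5; edgeR adjusted p = 0.0466) missed the cut-off. With the clone as a replicate block it was 1.64 (edgeR adjusted p = 0.00175) and was called, as it was with the pairs of KOE2 and KOF4 exchanged (edgeR adjusted p = 8.02e-05).

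SP140, whose protein is a chromatin reader best known from lymphocytes and macrophages, was low and varied most between clones. In untreated WT clones it was 14.5, 2.54, 7.88, 1.4 and 0.903 CPM, and with IFNγ 17.3, 6.47, 14.6, 4.18 and 5.15 CPM. WT1 and WT4 were highest in both states, so that the groups overlapped. The untreated levels differed 16-fold between WT clones. A log2 fold change of 0.82 ± 0.72 (SE, n = 5; edgeR adjusted p = 0.541) missed the cut-off, although SP140 was higher with IFNγ in 5 of 5 clones. With the clone as a replicate block it was 1.22 (edgeR adjusted p = 0.0156).

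In untreated KO clones SP140 was 1.2, 0.223, 7.43, 4.96 and 0.673 CPM, a 33.4-fold range, and with IFNγ 2.7, 1.04, 15.4, 4.94 and 8.31 CPM. KOD2, the clone labelled KO with ZBTB48 RNA above the WT libraries, was the highest in both states. A link of SP140 to ZBTB48 was not tested. The estimate of 1.16 ± 0.90 on the log2 scale missed the cut-off (SE, n = 5; edgeR adjusted p = 0.495). As labelled, KOE2 did not rise and KOF4 rose by 3.44 on the log2 scale, and with their treated libraries exchanged the values were 0.73 and 2.71. In the blocked fit with that exchange the log2 fold change was 1.48 and SP140 was called (edgeR adjusted p = 0.00431), whereas the block as labelled gave 1.51 (edgeR adjusted p = 0.0641). The 10 leukocyte markers summed to no more than 3.42 CPM in any library.

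DAXX, which deposits histone H3.3 together with ATRX, was the steadiest of the genes. It was 100.4, 110.4, 112.7, 104.1 and 89.2 CPM in untreated WT clones and 131.3, 109.1, 117.3, 134.6 and 92.8 CPM with IFNγ. In the KO clones it was 99.0, 114.1, 113.3, 116.6 and 103.0 CPM untreated and 146.9, 112.4, 159.9, 128.3 and 109.5 CPM with IFNγ. The treated and untreated libraries overlapped in both genotypes. Its log2 fold change was 0.19 in WT clones, with a 95% interval from -0.07 to 0.46 (edgeR adjusted p = 0.354). In KO clones it was 0.27, with an interval from -0.01 to 0.54 (edgeR adjusted p = 0.222), so that a 2-fold change lies outside both intervals. TAPBP, the gene of the peptide loading factor tapasin, lies within 100 kb of DAXX and was called higher in both genotypes, 3.1-fold in WT and 2.83-fold in KO clones. It was the sole called gene among the 18 tested neighbours within 100 kb of the 6 genes in WT clones, and among 19 in KO clones. Another neighbour, LOXL1-AS1, was lower with IFNγ but missed the fold cut-off. Its log2 fold change was -0.98 in WT (edgeR adjusted p = 5.75e-04) and -0.77 in KO clones (edgeR adjusted p = 0.0691). Over all genes tested, 2.48% in WT and 1.70% in KO clones were called higher.

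**Figure D3:**
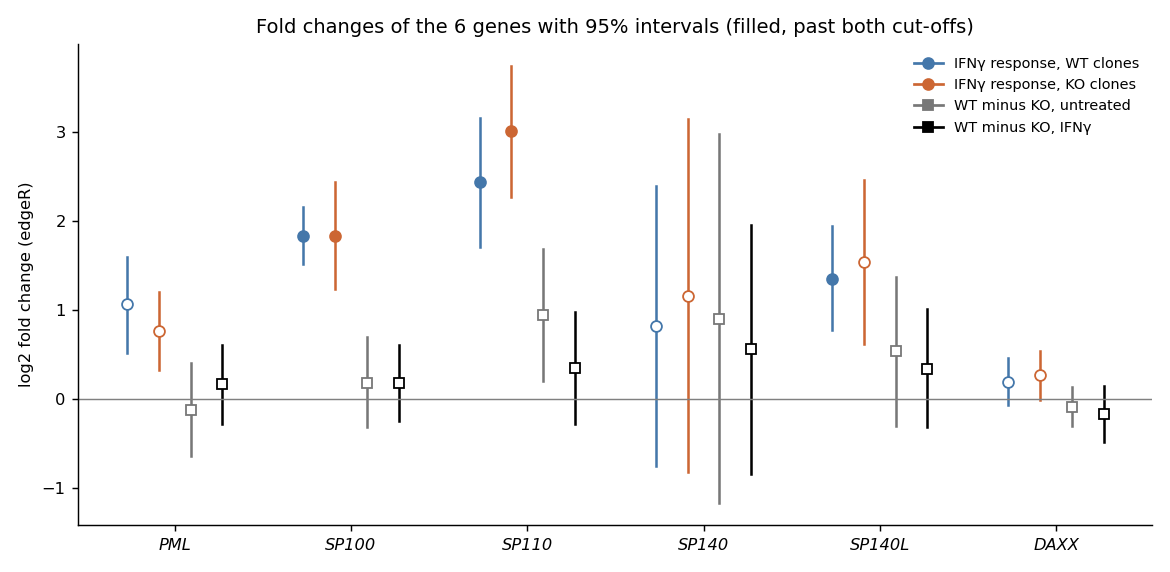
Log2 fold changes of the 6 genes from edgeR with their 95% intervals, for the IFNγ response in WT and KO clones and for WT minus KO in untreated and treated libraries. Filled symbols passed both cut-offs. SP100 and SP110 are filled in both genotypes, SP140L in WT clones, and no difference between WT and KO is.

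Between the genotypes, none of the 6 genes was called in untreated libraries, where 0.0154% of 19505 genes were called, nor with IFNγ, where 0.0155% of 19383 genes were. By edgeR, the unadjusted p was under 0.05 for SP110 among the untreated libraries, as for 935 genes in all, and DESeq2 called no member either. Untreated SP110 was 18.4 ± 8.30 CPM in WT and 9.57 ± 3.02 CPM in KO clones (SD, n = 5). WT5 and WT6 lay within the range of the KO clones and WT1, WT3 and WT4 above it. The WT minus KO difference was 0.94 on the log2 scale, with a 95% interval from 0.20 to 1.68 (edgeR adjusted p = 0.98), and an exact permutation test of the 5 against 5 log2 levels gave p = 0.0714. Without KOD2 the difference was 1.02 (edgeR adjusted p = 0.999). With IFNγ it was 0.35, with an interval from -0.28 to 0.98 (edgeR adjusted p = 0.996).

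The remaining differences between WT and KO clones missed the cut-off. Untreated, they ran from -0.12 for PML to 0.90 for SP140 on the log2 scale, and with IFNγ from -0.17 for DAXX to 0.56 for SP140. For PML the 95% intervals were -0.64 to 0.40 untreated and -0.28 to 0.61 with IFNγ, and for SP100 -0.32 to 0.69 and -0.25 to 0.60. The interval of untreated SP140, from -1.17 to 2.97, is wide enough to hold large differences in either direction. KOD2, with ZBTB48 RNA above its level in WT libraries, was the highest treated KO library for PML, SP100, SP110, SP140, SP140L and DAXX. For PML the margin was small, 142.2 CPM against 141.3 CPM in KOE2. Untreated, KOD2 was the highest for PML and SP140, but not for SP100, SP110, SP140L or DAXX. The share of all genes for which KOD2 was the highest was not counted, and a link to ZBTB48 was not tested. Without KOD2 the treated differences were 0.24 for PML, 0.31 for SP100, 0.61 for SP110 and 0.50 for SP140L, none of them called.

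The interaction test of whether WT and KO clones responded differently called 0 of the 6 genes and 0% of 21052 genes by edgeR, and 0 genes by DESeq2, with 86 genes at an unadjusted p under 0.05 in edgeR. The differences, WT minus KO, ran from -0.59 for SP110 (95% interval -1.57 to 0.38) to 0.28 for PML (-0.40 to 0.96), with an edgeR adjusted p of 1 for each gene. The clone was left out of that model, although treated and untreated libraries share it, and fewer than 5% of genes had an unadjusted p under 0.05. With the clone as a replicate block, 317 genes had an unadjusted p under 0.05, which is still fewer than 5%, and 0 were called. The PML difference was then 0.32 (95% interval 0.09 to 0.54; edgeR adjusted p = 1) and that of SP110 -0.48 (-1.02 to 0.07; edgeR adjusted p = 1), or -0.48 (-0.81 to -0.15; edgeR adjusted p = 0.999) with the treated libraries of KOE2 and KOF4 exchanged. The blocked fit with that exchange had 584 genes at an unadjusted p under 0.05, also fewer than 5%, and called 0. Taken clone by clone, the PML response was 1.08 ± 0.21 in WT and 0.76 ± 0.05 in KO clones on the log2 scale (SD, n = 5). WT6, at 0.76, lay among the KO clones and the other WT clones above them. An exact permutation test gave p = 0.0238 and an adjusted p of 0.143 over the 6 genes, and leaving out KOE2 and KOF4, an alternative added after the data were seen, gave a difference of 0.34 with an exact p of 0.0714. Leaving out KOD2, also added then, gave a difference of 0.31 with an exact p of 0.0476 and an adjusted p of 0.286. SP110 went the other way, 2.49 ± 0.31 against 2.96 ± 0.56, with an exact p of 0.159 as labelled and 0.0476 with the treated libraries of KOE2 and KOF4 exchanged, where the adjusted p was 0.143.

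The order of the levels was compared per kb of exon. In untreated WT clones DAXX was highest, at 40.4 ± 3.64 CPM per kb (SD, n = 5), followed by PML at 8.61 ± 2.75 and SP100 at 4.02 ± 0.672. SP110 at 2.65 ± 1.19 and SP140L at 2.33 ± 0.723 CPM per kb were within each other's spread, and SP140 was lowest at 0.28 ± 0.296. The level of SP140 depends on its model, since 13291 of the 19424 bases it is divided by lie within the SP110 span, before the RefSeq start. With IFNγ the WT levels were 45.7 ± 6.66 for DAXX, 17.7 ± 4.03 for PML, and 14.1 ± 1.88 and 14.1 ± 4.08 for SP100 and SP110. PML, SP100 and SP110 then lay within each other's spread. SP140L followed at 5.89 ± 1.95 and SP140 at 0.491 ± 0.308 CPM per kb. The order was the same in treated KO clones. In untreated KO clones SP140L at 1.59 ± 0.79 and SP110 at 1.38 ± 0.435 CPM per kb changed places within their spread.

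The relation of untreated to treated levels over clones differed in strength between the genes. Over the 10 clones, in a family of 6 relations, untreated and treated log2 levels of PML correlated with r = 0.85 (permutation p = 0.00282, adjusted 0.00483) and rho = 0.75 (permutation p = 0.0176, adjusted 0.0353). Without the 2 clones farthest from the untreated median, r was 0.78. For SP140L r was 0.88 (permutation p = 5.00e-05, adjusted 3.00e-04) and rho 0.88 (permutation p = 0.00151, adjusted 0.00906), with r = 0.78 without the 2 farthest clones. For SP100 r was 0.92 (permutation p = 0.00167, adjusted 0.00483) and rho 0.78 (permutation p = 0.0107, adjusted 0.032), but r fell to 0.58 without the 2 farthest clones. For SP140 r was 0.83 (permutation p = 0.00322, adjusted 0.00483) and rho 0.71 (permutation p = 0.0261, adjusted 0.0391), and r fell to 0.62. For DAXX r was 0.35 and rho 0.15 (permutation p = 0.329 and 0.68, adjusted the same), and r was -0.22 without the 2 farthest clones. The relation was not tested within WT or within KO, which hold 5 clones each. With the treated libraries of KOE2 and KOF4 exchanged, r for SP110 went from 0.75 (permutation p = 0.0137, adjusted 0.0165) to 0.88 (permutation p = 9.60e-04, adjusted 0.00192), and rho from 0.66 (permutation p = 0.0442, adjusted 0.053) to 0.90 (permutation p = 8.10e-04, adjusted 0.00243). Without the 2 farthest clones r for SP110 was 0.55 as labelled and 0.82 exchanged. For SP140 the exchange gave r = 0.93 (permutation p = 1.40e-04, adjusted 4.20e-04) and rho = 0.89 (permutation p = 0.00132, adjusted 0.00264). Without the 2 farthest clones r for SP140 was then 0.87. The exchange raised rho to 0.93 for SP140L and lowered it to 0.72 for PML, 0.68 for SP100 and -0.07 for DAXX.

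Pairs of genes were compared over the 10 clones in a family of 15 pairs for each state. With IFNγ, the 6 pairs of Sp100 family genes had r from 0.85 to 0.96 and rho from 0.87 to 0.98 (permutation adjusted p of rho at most 0.0055), with r from 0.76 to 0.92 without the 2 farthest clones. Untreated, r ran from 0.71 to 0.88 and rho from 0.65 to 0.90, and the adjusted permutation p of rho was 0.122 for SP100 with SP110 and for SP100 with SP140. Without the 2 farthest clones the untreated r fell to 0.50 to 0.74, and the pairs of SP100 to 0.50, 0.53 and 0.54. With IFNγ, SP140 and SP140L correlated with r = 0.96 (permutation p = 1.00e-05, the smallest that the resampling can give, adjusted 1.50e-04) and rho = 0.98 (permutation p = 2.00e-05, adjusted 3.00e-04). Without the 2 farthest clones r was 0.92. Untreated, r for the pair was 0.81 (permutation p = 0.00124, adjusted 0.00937) and rho 0.78 (permutation p = 0.0104, adjusted 0.0478), with r = 0.61 without the 2 farthest clones. Of these relations, those of SP110 with SP140 may share reads, since the gene models overlap. PML and SP100, at different loci, gave r = 0.10 and rho = -0.08 untreated (permutation p = 0.798 and 0.837, adjusted 0.907 and 0.973). With IFNγ they gave r = 0.52 and rho = 0.42 (permutation p = 0.114 and 0.232, adjusted 0.215 and 0.387). Leaving out the 2 clones farthest from the median of PML raised r to 0.66 untreated and 0.90 with IFNγ, so that the value rests on which clones enter.

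The genes whose pattern over the 20 libraries was nearest were found among 15118 genes of mean CPM of at least 1, by the mean absolute difference of log2 levels set relative to untreated WT clones. For SP100 these were TRIM21, TAPBP and DDX58, at 0.21, 0.24 and 0.25. For SP110 they were LINC02328, CASP4 and TAPBPL, at 0.39, 0.42 and 0.44, and for SP140L HELZ2, ARHGAP18 and ITGA6, at 0.35, 0.36 and 0.39. PML was nearest to TRIB1, PSMA4 and RSL24D1, at 0.21, 0.22 and 0.23, and DAXX to DDX55, ZBTB9 and NUP107, at 0.09, 0.09 and 0.10. No gene came close to SP140, for which ITGA2, SVIL2P and LOC105372621 differed by 0.68, 0.68 and 0.71.

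Lists of other genes of the pathway were read beside the 6 genes. Of 19 genes of SUMO conjugation and removal, none was called in either genotype, and their median log2 fold changes were 0.07 and 0.05. The largest estimates there were 0.34 for UBA2, a subunit of the SUMO activating enzyme, in WT clones (edgeR adjusted p = 0.21) and 0.45 for SENP6, a SUMO protease, in KO clones (edgeR adjusted p = 0.0192). Of 20 genes of other proteins found in PML bodies, none was called either, and the medians were 0.03 and 0.06. Among them the estimate for MORC3, an ATPase recruited to the bodies, was 0.55 in WT and 0.54 in KO clones (edgeR adjusted p = 0.468 and 0.185). ATRX, the partner of DAXX, had -0.36 in WT and -0.27 in KO clones (edgeR adjusted p = 0.0477 and 0.259).

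Of 14 genes of telomere recombination, 1 was called in each genotype, where 2.48% of all genes tested in WT and 1.70% in KO clones were called higher. NBN, the NBS1 subunit of the MRN complex that acts at DNA breaks and at telomeres of such cells, rose from 77.3 ± 13.1 to 167.1 ± 23.7 CPM in WT clones (SD, n = 5). Its log2 fold change was 1.13 ± 0.15 in WT (SE, n = 5; edgeR adjusted p = 6.45e-04) and 1.25 ± 0.10 in KO clones (edgeR adjusted p = 3.87e-05). The median of the list was 0.19 and 0.24. As a reference, 12 of 12 known interferon targets were called higher in both genotypes, with medians of 4.11 and 4.41. They were chosen as known responders, with earlier results of these data known, so their calls are no test. IRF1, a transcription factor induced early by interferons, rose by a log2 fold change of 4.96 in WT and 4.72 in KO clones. The estimates of SP100, SP110 and SP140L lay within the range of these targets, from 1.14 to 8.73 in WT and from 1.19 to 9.89 in KO clones. Those of PML, SP140 and DAXX lay below it. No gene of these lists was called between the genotypes.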

How the data were processed

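PolyA RNA of 5 WT and 5 ZBTB48 KO U2OS clones was sequenced, each untreated and with IFNγ. The authors deposited raw counts per gene for 20 libraries, not normalized. Per the labels the kit was stranded, and the submitters' processing notes name STAR 2.7.9a, featureCounts 2.4.0, DESeq2 1.40.1 and GRCh38; the strand setting of the counting was not given in the sources used here.

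From these counts, edgeR 4.0.16 (TMM, its filter on low counts, robust quasi-likelihood test; R 4.3.3) was run over all genes for each 5 against 5 comparison, and over 20 libraries for the difference between responses. It is the main test, although the study used DESeq2 with normal shrinkage, which was run as an alternative (version 1.42.0). p values were adjusted by the Benjamini-Hochberg method over every gene tested in a comparison. The log2(CPM + 0.1) levels of single genes were compared by exact permutation, two-sided, and correlations by 100000 permutations (scipy 1.17.1). Depth covers counting error only, and every member but SP140 had at least 151 counts in each library (SP140 at least 11). The scripts were tested on simulated counts with the same dispersion for every gene and no clone effect, which does not cover the spread between clones seen here.

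All 6 members are named, and of the other lists each called gene or up to 3 genes with the largest changes, with ATRX and TERT. Members and lists were chosen with earlier results of these data known. The labels give the clone of each library, and deviations from the group mean correlated within a clone in WT (r = 0.79 to 0.89) and in KO replicates 1 to 3 (0.70 to 0.85), so the replicate number was used as a block in an alternative fit. WT and KO clones share only a number. Other alternatives were DESeq2's size factors, no filter, a looser cut-off, 1 fit of all libraries, and leaving out clones.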

Additional observations from a re-analysis of the deposited data

How the results depend on the processing

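With 5 clones a group, calls near the cut-off depend on single clones. In WT clones 3 members were called, and 1 to 3 when a clone was left out, the lowest without WT3. In KO clones 2 were called, 1 to 2 when a clone was left out, 0 without KO replicates 4 and 5 together, and 4 both with a replicate block in which KO replicates 4 and 5 swapped their IFNγ libraries and at an adjusted p under 0.05 with no limit on the fold. The block added PML in WT clones and SP140L in KO clones, with SP140 when exchanged, and changed no other member's call. Fitting all 20 libraries together kept 3 calls in WT clones but lost SP140L (adjusted p = 0.026) and gained PML (0.00666). SP140L was also called in KO clones by that fit (0.00976) and by DESeq2 with normal shrinkage (1.05, 0.00299) and without (0.00299), and PML in WT clones by DESeq2 without shrinkage (7.12e-04). The pairing of WT with KO clones by number rests on the number alone, and the replicate block called no member there. Between genotypes and for the difference between responses, 0 members were called under every alternative run, and no member with a call changed direction. Over all genes, WT responses gave 585 calls, 976 with DESeq2 without shrinkage, 1414 with the block, 2202 at the looser cut-off and from 318 without WT replicate 2. KO responses gave 379 calls, 825 with DESeq2 without shrinkage, 616 with shrinkage, 642 in 1 fit of all libraries, 721 with the block, 1208 with the exchanged pairs, 1528 at the looser cut-off, 22 without KO replicates 4 and 5 and from 131 without KO replicate 4. Between genotypes, 3 calls untreated became 1 to 13, and 3 with IFNγ became up to 16, the highest with DESeq2. The causes were not tested. With normal shrinkage the log2 fold change of SP140 fell to 0.29 in WT and 0.33 in KO clones.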
